A study of Arabidopsis thaliana with 12 samples.

Results

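The squalene epoxidase family of Arabidopsis thaliana was followed across the rosettes of 4 genotypes. It comprises 6 loci of the 33618 in the deposited table: SQE1 (AT1G58440), SQE2 (AT2G22830), SQE3 (AT4G37760), SQP2 (AT5G24140), SQP1 (AT5G24150, also called SQE5) and SQE6 (AT5G24160). The family was chosen by its FPKM values, because the transcript of SQP1 is lower in the vtc2 mutant than in wild type. The vtc2 against wild type values therefore describe all 6 members and are not tests. The wild type (WT) group was compared with the mutants vtc2-4 (vtc2) and vtc4-4 (vtc4) and with the line vtc2/OE-VTC2 L15 (OE), labelled as overexpressing VTC2 with the vtc2 mutation. All plants were 4 weeks old, untreated, kept in 8 h of light and 16 h of darkness at 22 °C and 300 µmol photons m-2 s-1, and frozen 30 min into the light period. Each genotype had 3 libraries, each made from a separate pool of 8 whole rosettes. Each mutant is represented by a single allele and OE by a single line, with no promoter given in the sources used here. The study's title connects ascorbate content with auxin biosynthesis, and sterol or triterpene synthesis is not named in it. Of the 6 members, 5 had at least 1 FPKM (fragments scaled by transcript length and library size) in at least 3 of the 12 libraries and could be compared. SQP2 did not.

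Squalene epoxidase, a flavin-dependent monooxygenase of the endoplasmic reticulum, adds an oxygen atom to squalene. The product, 2,3-oxidosqualene, is the substrate of the oxidosqualene cyclases, from which sterols, brassinosteroids and the triterpenes of plants derive. Squalene is made in the cytosolic mevalonate route, whereas the plastid MEP route supplies carotenoids, chlorophyll side chains and other plastid isoprenoids. SQE1, SQE2 and SQE3 are known to replace the yeast enzyme Erg1, and loss of SQE1 gives short roots, reduced fertility and sensitivity to drought. SQP1, SQP2 and SQE6 form a more divergent group of squalene epoxidase-like genes in a tandem array, and their activity is less well established.

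The sequences show how far single members can be told apart. In the TAIR10.1 annotation SQE1 lies at chr1:21713842-21717380 (minus strand), SQE2 at chr2:9723615-9726384 (minus) and SQE3 at chr4:17743738-17746697 (plus). The tandem genes follow each other on the minus strand, SQP2 at chr5:8164319-8167776, SQP1 at chr5:8172300-8175525 and SQE6 at chr5:8182917-8186704. No annotated gene overlaps any of the 6. SQP1 and SQE6 are the closest pair, with 87.8% identity over aligned coding bases, followed by SQE2 and SQE3 with 78.8%. SQP2 shares 72.5% with SQP1 and 72.7% with SQE6. The identity of SQE1, SQE2 or SQE3 with a tandem member lies between 59.6% and 64.0%. The sequencing reads were 75 bases long. Among 1403 coding windows of that length, SQP1 and SQE6 differ by 2 to 17 bases, with a median of 9. The window where they are most alike, coding positions 573 to 647, is printed 5′ to 3′ from the RefSeq copy of TAIR10.1 with the differing bases in capitals, since a read from there is the hardest to place.
SQP1: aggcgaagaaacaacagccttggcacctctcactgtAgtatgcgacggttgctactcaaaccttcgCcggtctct
SQE6: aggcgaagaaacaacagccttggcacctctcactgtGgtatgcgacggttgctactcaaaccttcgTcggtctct
No stretch of 75 bases is identical between transcripts of any 2 members, and the longest identical stretch of SQP1 and SQE6 has 41 bases. How many mismatches the alignment tolerated, and how reads with several matches were counted, was not stated by the submitters' notes as used here. Exchange of reads between SQP1 and SQE6 was not tested, and the values of both carry that uncertainty.

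The regions upstream of SQP1 and SQE6 are shown because the transcripts of these neighbours differ in opposite directions in vtc2. The 250 bases before the annotated transcript start are printed in the direction of transcription, at chr5:8175526-8175775 for SQP1 and chr5:8186705-8186954 for SQE6. Capitals mark matches, on either strand, to the G-box CACGTG, the W-box core TTGAC, the evening element AAAATATCT, the CCA1-binding site AAAAATCT or the TATA box TATAAA.
SQP1 upstream: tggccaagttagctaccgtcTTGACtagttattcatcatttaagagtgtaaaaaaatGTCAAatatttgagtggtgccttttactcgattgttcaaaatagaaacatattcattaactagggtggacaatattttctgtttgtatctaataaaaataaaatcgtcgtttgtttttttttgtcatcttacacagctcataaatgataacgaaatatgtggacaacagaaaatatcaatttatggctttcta
SQE6 upstream: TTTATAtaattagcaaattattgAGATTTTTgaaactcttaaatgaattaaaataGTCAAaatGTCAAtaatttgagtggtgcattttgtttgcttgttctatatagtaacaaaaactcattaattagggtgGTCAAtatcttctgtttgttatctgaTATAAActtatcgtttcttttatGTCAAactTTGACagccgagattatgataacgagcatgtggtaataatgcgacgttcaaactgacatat
The window searched ran from 250 bases before to 50 bases after the start. SQP1 held 2 W-box cores. SQE6 held 5 W-box cores, 1 CCA1-binding site and 2 TATA boxes. In the same window SQP2 held 1 G-box and 2 W-box cores. Of 27443 windows of protein-coding genes, 50.5% held a W-box core, 52.1% a TATA box, 7.88% a CCA1-binding site, 7.68% a G-box and 2.82% an evening element. The windows of SQP1 and SQE6 were identical at 70.1% of aligned bases. These matches are letters in a window and show no binding.

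The labels of the mutants were matched by the disrupted genes. VTC2, which encodes GDP-L-galactose phosphorylase of the ascorbate route, stood at 819 ± 77.4 FPKM (mean ± SD, n = 3 here and below) in WT, 17.2 ± 2.79 in vtc2, 783 ± 65.1 in vtc4 and 383 ± 24.6 in the libraries labelled OE. VTC2 in the OE libraries was thus below WT, and whether transgene transcripts were fully counted is unknown. VTC4, the gene of L-galactose 1-phosphate phosphatase, stood at 0.373 ± 0.0837 FPKM in vtc4 and at 23.3 to 29.0 on average elsewhere. Between 16591 and 16962 genes per library reached 1 FPKM. The leaf markers LHCB2.1 and CA1 were abundant, with summed marker levels of 4979 to 6225 FPKM in WT, 4483 to 5020 in vtc2, 5373 to 5943 in vtc4 and 5271 to 5755 in OE, while CAB1 and RBCS1A, abundant in any leaf, were listed at 0 in all 12 libraries. A listed 0 can thus be a failed estimate. The 5 flower and 4 seed markers stayed under 1 FPKM in every library, as did 4 of 5 root markers. PYK10, the remaining root marker and a beta-glucosidase of ER bodies, summed with the others to 10.9 to 17.3 FPKM in WT, 24.8 to 31.2 in vtc2, 22.5 to 30.5 in vtc4 and 18.7 to 21.3 in OE. By limma on log2(FPKM + 1), PYK10 was called in vtc2 against WT (difference 0.95, adjusted p = 0.0095), as were 3.02% of all genes. It was not called in vtc4 or OE against WT (0.83 and 0.51, limma adjusted p = 0.139 and 0.605).

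The 6 members spanned from near 0 to over 100 FPKM, a unit that allows levels to be compared between genes because it is scaled by transcript length. In the mean over 12 libraries SQE3 was highest at 121 FPKM, followed by SQP1 at 40.8, SQE1 at 19.5, SQE6 at 9.23 and SQE2 at 1.59. SQP2 was listed at 0.190 FPKM at most. SQE3 exceeded 95.0% of the 17290 genes that passed the filter on low values, and SQE2 only 8.43%. The highest library exceeded the lowest by 1.24-fold for SQE1, 1.40-fold for SQE3, 1.45-fold for SQE2 and 1.53-fold for SQE6, and by 3.01-fold for SQP1. The order of the 5 genes by group mean was the same in each genotype. In vtc2, SQP1 (mean 19.9 FPKM) and SQE1 (mean 19.3 FPKM) overlapped, whereas SQP1 lay above SQE1 in every library of the other groups.

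**Figure D1:**
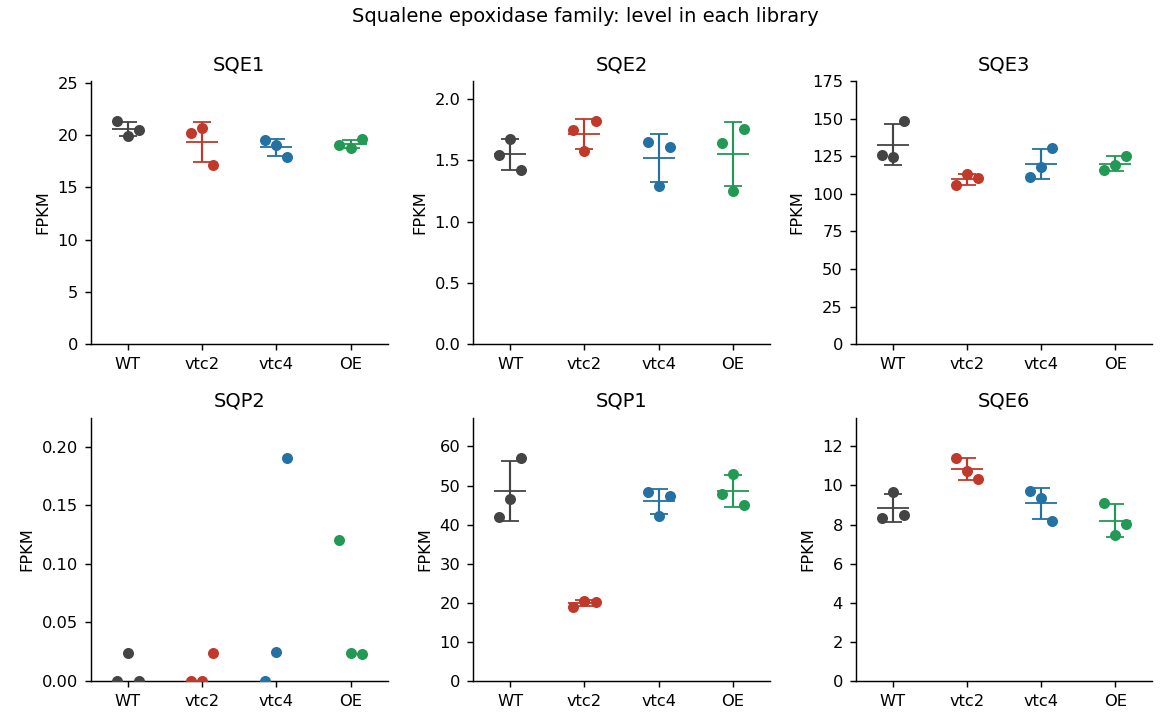
FPKM of each squalene epoxidase family member in the 12 libraries, 1 panel per gene with its own axis starting at 0; points are libraries, bars group means ± SD (n = 3), shown for the 5 members that passed the filter. SQP1 lies between 19.0 and 20.4 FPKM in vtc2 and between 42.0 and 57.1 in the other libraries, and the vtc2 points of SQE6 lie above all others.

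SQP1, the member that led to the choice of the family, stood at 42.0, 46.6 and 57.1 FPKM in WT replicates 1, 2 and 3, at 19.0, 20.4 and 20.2 in vtc2, at 48.4, 42.3 and 47.2 in vtc4 and at 47.9, 52.9 and 45.0 in OE. All 3 vtc2 libraries lay below the other 9, and the other 3 groups overlapped. The means were 48.6 ± 7.7 FPKM in WT, 19.9 ± 0.792 in vtc2, 46.0 ± 3.23 in vtc4 and 48.6 ± 4.03 in OE. The difference of vtc2 from WT was -1.24 on the scale of log2(FPKM + 1) (SE 0.10, 95% interval -1.46 to -1.02), the 20th lowest of 17290 genes. Differences below are on the same scale, on which changes of low genes appear smaller than they are. In that comparison 3.02% of all genes were called by limma at an adjusted p below 0.05, a share given for background only. All 3 vtc2 libraries lay below all 9 others for 956 of the 17290 genes, or 5.53%. RNA of whole rosettes does not separate fewer cells of a type from less transcript per cell. On average the leaf marker sum was lowest and PYK10 highest in vtc2, though PYK10 overlapped between vtc2 and vtc4 (ranges above). The part of these markers in the SQP1 difference was not tested.

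In the remaining comparisons SQP1 shared libraries with the contrast that chose it, except in OE against vtc4. The OE libraries exceeded vtc2 by 1.25 (SE 0.10, 95% interval 1.03 to 1.46), the 31st highest difference, with no overlap. The vtc2 libraries lay below vtc4 by a difference of -1.17 (SE 0.10), the 25th lowest. These values rest on the same vtc2 libraries and are given as a description. The difference from WT was -0.07 (95% interval -0.29 to 0.15) for vtc4 and 0.01 (95% interval -0.21 to 0.23) for OE, and both signs depended on single libraries. OE against vtc4, which uses neither WT nor vtc2, gave 0.08 (SE 0.10, 95% interval -0.14 to 0.30, limma adjusted p = 0.997). That interval leaves room for a difference of up to 0.30 between OE and vtc4.

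**Figure D2:**
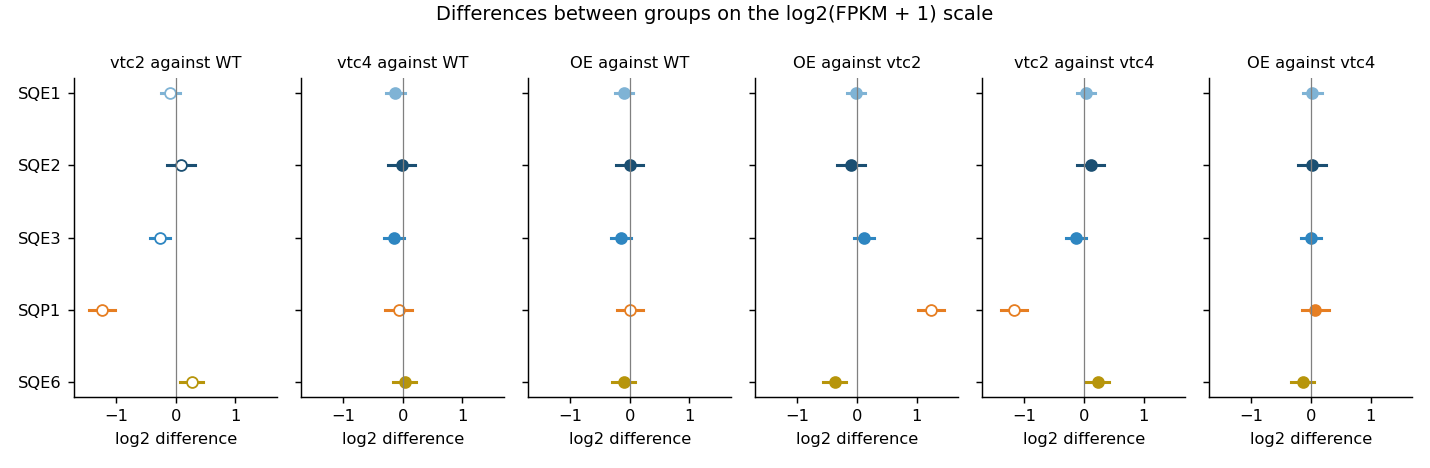
Difference in log2(FPKM + 1) for each member that passed the filter in the 6 comparisons, with 95% intervals from limma; filled symbols were tested and open ones were not, because the choice of the family used them. The SQP1 differences that involve vtc2 lie between 1.17 and 1.25 from 0 in size, and those of the other members stay within 0.37.

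SQE6, next to SQP1 in the array and its closest relative in sequence, differed in the opposite direction. It stood at 8.33, 9.66 and 8.51 FPKM in WT, at 11.4, 10.8 and 10.3 in vtc2, at 9.74, 9.33 and 8.17 in vtc4 and at 9.10, 7.45 and 8.02 in OE. The 3 vtc2 libraries were above all 9 others, as they were for 4.31% of all genes, and the remaining groups overlapped. The means were 8.84 ± 0.722 FPKM in WT, 10.8 ± 0.553 in vtc2, 9.08 ± 0.812 in vtc4 and 8.19 ± 0.838 in OE. SQE6 was the 1 member called in any comparison. It fell in OE relative to vtc2, by a difference of -0.37 (SE 0.09, 95% interval -0.56 to -0.17, limma adjusted p = 0.0366), a 0.776-fold level. It was 1 of 4 members tested there, against 5.14% called among all genes. The call ended without any 1 of 7 libraries: the limma adjusted p was 0.0671, 0.106 and 0.0775 without vtc2 replicates 1, 2 and 3, 0.0508 without vtc4 replicate 2, and 0.0593, 0.0818 and 0.0949 without OE replicates 1, 2 and 3. It also ended with no filter on low values and with only the compared groups in the model. The difference stayed between -0.44 and -0.31 in all 21 alternatives.

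Against vtc4, SQE6 in vtc2 was higher by 0.23 (SE 0.09, 95% interval 0.04 to 0.43), a difference that was not called (limma adjusted p = 0.170). The difference from WT was 0.27 in vtc2 (SE 0.09, a description), 0.03 in vtc4 (95% interval -0.16 to 0.23) and -0.10 in OE (95% interval -0.29 to 0.09). Between OE and vtc4 it was -0.13 (95% interval -0.33 to 0.06). None of the last 3 was called (limma adjusted p = 1.00, 0.943 and 0.985 in that order). In the order of group means SQE6 was highest in vtc2, then vtc4, WT and OE, and the libraries of the last 3 overlapped.

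SQP2, the third gene of the array, was close to the limit of detection. It was listed at 0, 0.0239 and 0 FPKM in WT, at 0, 0 and 0.0234 in vtc2, at 0, 0.0247 and 0.190 in vtc4 and at 0.120, 0.0236 and 0.0229 in OE. These values were scaled by the relative step of each library and divided by the smallest nonzero one. They were then 0, 1, 0, then 0, 0, 1, then 0, 1, 8, and then 5, 1, 1, each within 0.1 of a whole number. Single fragments would give such steps, but whether the smallest value stands for 1 fragment was not tested. The 2 higher libraries, vtc4 replicate 3 and OE replicate 1, stood apart from their own groups, and no difference between genotypes could be assessed at this level. Between SQP1 and SQE6 the annotation places AT5G24155, a short gene with 366 coding bases and no symbol that is not a member. It shares 87.2% of aligned coding bases with both neighbours and averaged 0.544 FPKM in WT, 0.374 in vtc2, 0.522 in vtc4 and 0.581 in OE, under the filter.

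SQE3, the most abundant member, stood at 126, 124 and 148 FPKM in WT, at 106, 113 and 110.3 in vtc2, at 111, 118 and 131 in vtc4 and at 116, 119 and 125 in OE. All 3 vtc2 libraries lay below the WT libraries, while vtc4 and OE overlapped with WT. The means were 133 ± 13.5 FPKM in WT, 109.8 ± 3.59 in vtc2, 120.0 ± 9.76 in vtc4 and 120.1 ± 4.79 in OE. The difference of vtc2 from WT was -0.27 (SE 0.08, a description), smaller than that of SQP1. It was -0.18 after each library was rescaled to the same total. The differences from WT in vtc4 (-0.14, SE 0.08) and OE (-0.14, SE 0.08) were not called (limma adjusted p = 1.00 and 0.891). Without WT replicate 3, the highest library, they were -0.06 in both. OE exceeded vtc2 by 0.13 with no overlap between libraries and without a call (95% interval -0.04 to 0.30, limma adjusted p = 0.341).

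SQE1, the member with the clearest role in growth, varied least of the 5 over the 12 libraries. It stood at 21.3, 20.0 and 20.5 FPKM in WT, at 20.2, 20.7 and 17.1 in vtc2, at 19.5, 19.0 and 17.9 in vtc4 and at 19.0, 18.8 and 19.6 in OE. The WT libraries were above those of vtc4 and OE, while vtc2 overlapped with every group. The means were 20.6 ± 0.694 FPKM in WT, 19.3 ± 1.94 in vtc2, 18.8 ± 0.809 in vtc4 and 19.1 ± 0.396 in OE. Neither the difference of vtc4 from WT (-0.12, SE 0.07, limma adjusted p = 1.00) nor that of OE (-0.10, SE 0.07, limma adjusted p = 0.922) was called. SQE2, the lowest in transcript level of the 3 complementing enzymes, stood at 1.55, 1.67 and 1.43 FPKM in WT, at 1.75, 1.58 and 1.82 in vtc2, at 1.65, 1.30 and 1.61 in vtc4 and at 1.64, 1.25 and 1.76 in OE. All 4 groups overlapped. No tested difference of SQE2 was larger than 0.11 (SE 0.11), and none was called.

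Across comparisons, the members' counts were set beside those of the whole table. By limma 0 of 4 tested members were called in vtc4 against WT (0.0347% of all genes called) and in OE against WT (0.0174%), and in both 0 had an unadjusted p under 0.05. In vtc2 against vtc4 the count was 0 of 4 (1.36% of all genes), with 1 at an unadjusted p under 0.05, SQE6. In OE against vtc4 it was 0 of 5 (0.0405%), with 0 at an unadjusted p under 0.05. Library values did not overlap between groups for 3 of 5 members in vtc2 against WT (22.9% of all genes), 1 in vtc4 against WT (10.4%), 1 in OE against WT (10.9%), 3 in OE against vtc2 (27.2%), 2 in vtc2 against vtc4 (27.6%) and 0 in OE against vtc4 (11.3%). In each comparison that involves vtc2 these members include SQP1, whose low level there chose the family, so those counts are a description. The remaining ones were SQE3 and SQE6 against WT and OE, and SQE6 against vtc4. The comparisons share WT or vtc2 libraries, so these counts are not independent of each other.

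The summed level of the 6 members was 212 ± 20.4 FPKM in WT, 162 ± 4.42 in vtc2, 195 ± 8.91 in vtc4 and 198 ± 3.31 in OE, so the vtc2 mean was 76.1% of that in WT. This sum includes SQP1, whose lower level chose the family. Without SQP1 the sum was 164 ± 13.0 FPKM in WT, 142 ± 3.89 in vtc2, 149 ± 8.26 in vtc4 and 149 ± 4.94 in OE, and the vtc2 mean was 86.5% of that in WT. The 3 complementing enzymes together reached 84.4% of WT in vtc2, and the tandem genes 53.5%. These sums were not scaled by library total. Over all genes the FPKM totals were 684606 to 695840 in the vtc2 libraries and at least 706293 in the other libraries. The part of these totals in the lower vtc2 sums was not tested. SQP1 made up 22.8% ± 1.56 of the family in WT, 12.3% ± 0.342 in vtc2, 23.5% ± 1.63 in vtc4 and 24.6% ± 2.02 in OE. SQE3 made up 62.5% ± 0.947 in WT and 68.0% ± 1.04 in vtc2. That share is of a sum that includes SQP1, and SQE3 itself averaged 133 FPKM in WT and 109.8 in vtc2. Within a library, the ratio of SQP1 to SQE6 ran from 1.66 to 1.96 in vtc2 and from 4.53 to 7.10 in the other 9. The ratio of SQE6 to SQE3, which does not involve SQP1, ran from 0.0935 to 0.108 in vtc2 and did not exceed 0.0874 elsewhere.

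**Figure D3:**
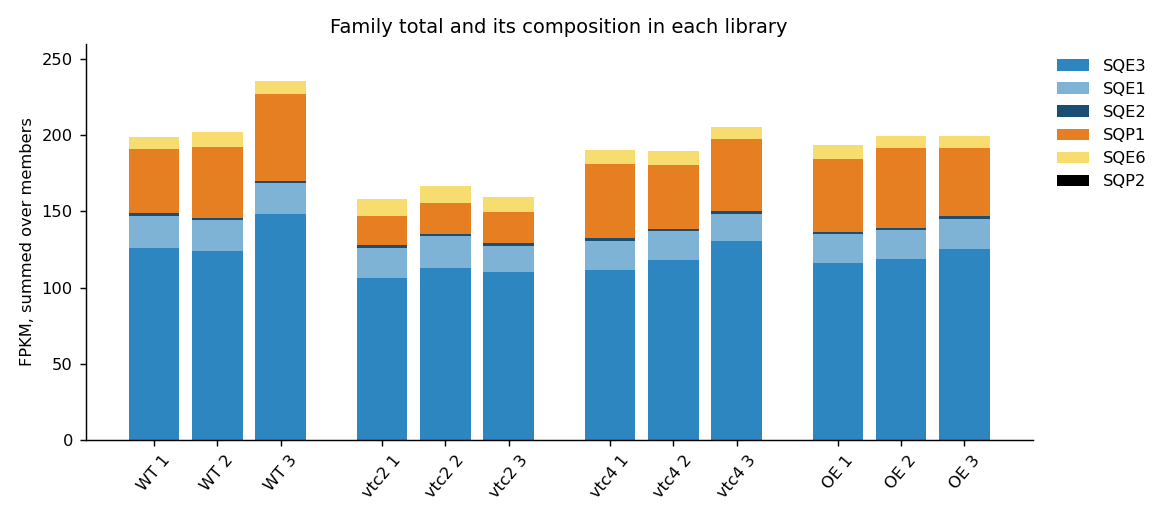
FPKM summed over the family in each of the 12 libraries (horizontal axis: genotype and replicate), stacked by member from 0. The vtc2 libraries sum to 158 to 167 FPKM against 190.0 to 236 in the others, and the SQP1 block is the one that differs most.

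The genes around the array were examined to see whether its surroundings moved. Of the 6 annotated genes on each side, 3 per side passed the filter: AGP41, WRKY30, SIGE, AT5G24165, AT5G24170 and AT5G24200. By limma 0 of these 6 were called in each of the 6 comparisons, and 4 had an unadjusted p under 0.05 in vtc2 against WT, 3 in OE against vtc2, 3 in vtc2 against vtc4 and 0 in the others. Among all genes the shares in those 3 comparisons were 19.7%, 23.3% and 21.0%. SIGE, a plastid sigma factor, had a difference of -0.30 in vtc2 against WT (SE 0.13, limma adjusted p = 0.221), and AT5G24165 one of -0.25 (SE 0.07, limma adjusted p = 0.0912). WRKY30, a transcription factor gene linked to stress, had a difference of 0.44 (SE 0.20, limma adjusted p = 0.248). AT5G24200 averaged 1.60 ± 0.166 FPKM in WT and 4.16 ± 2.02 in vtc2, where its libraries spread from 1.88 to 5.74. The tested neighbours had differences of both signs in vtc2 against WT.

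**Figure D4:**
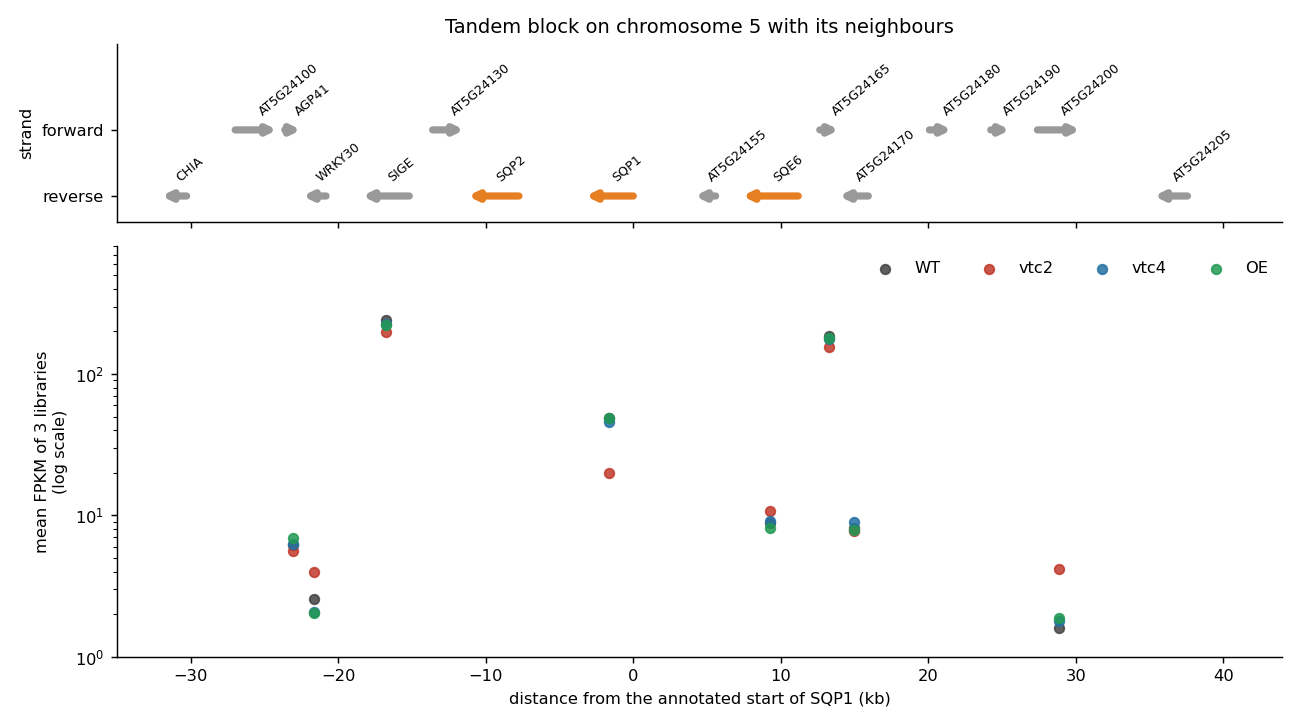
Top, the annotated genes around the tandem array by distance from the SQP1 start in kb, with arrows for strand. Bottom, on a logarithmic axis, the mean FPKM of the 3 libraries of each genotype for the 8 genes that passed the filter, where the vtc2 mean of SQP1 (19.9 FPKM) lies apart from those of the other groups (46.0 to 48.6).

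The rest of the pathway was read from lists of mevalonate, squalene, cyclase, sterol and brassinosteroid genes, with the plastid MEP route beside them. Of 56 tested genes, 0 were called by limma in vtc2 against WT, vtc4 against WT, OE against WT, vtc2 against vtc4 and OE against vtc4, and 12, 2, 0, 8 and 4 had an unadjusted p under 0.05, which 19.7%, 4.86%, 6.04%, 21.0% and 5.02% of all genes had. In OE against vtc2 1 was called, against 5.14% of all genes, and 15 had an unadjusted p under 0.05, against 23.3% of all genes. The median difference of the 56 genes in vtc2 against WT was -0.02, beside 0.00 for all genes.

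Upstream of squalene, the 11 mevalonate genes had a median difference of 0.00 in vtc2 against WT. HMGR1, the main HMG-CoA reductase, stood at 297 ± 25.9 FPKM in WT and 298 ± 27.1 in vtc2. PMK, a phosphomevalonate kinase, differed by 0.04 and IPP2, an isopentenyl diphosphate isomerase, by -0.03. The 4 farnesyl diphosphate and squalene synthase genes had a median of -0.05. SQS1, the squalene synthase that provides the substrate of the family, stood at 43.0 ± 3.22 FPKM in WT and 40.6 ± 3.04 in vtc2. FPS1 and FPS2, which make farnesyl diphosphate, differed by -0.02 and 0.13. By limma 0 of these 15 genes were called in each of the 6 comparisons, also under all 21 alternatives. Only 2 of them, both mevalonate genes in OE against vtc2, had an unadjusted p under 0.05, which 23.3% of all genes had there.

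Downstream, 4 of 13 oxidosqualene cyclases passed the filter. CAS1, the cycloartenol synthase that opens the sterol route, stood at 38.7 ± 2.05 FPKM in WT and 38.9 ± 1.99 in vtc2, and LUP1, the lupeol synthase, at 12.0 ± 1.92 and 11.0 ± 2.60. LUP2, a multifunctional triterpene cyclase, differed by 0.07. LUP5, named after its values were seen, averaged 1.19 ± 0.557 FPKM in WT, 3.27 ± 1.40 in vtc2, 1.17 ± 0.271 in vtc4 and 1.24 ± 0.358 in OE. Its difference of 0.93 in vtc2 against WT was not called (limma adjusted p = 0.0735). The 6 listed enzymes that act in triterpene gene clusters, such as THAH and THAD of the thalianol cluster, were under the filter. The 18 tested sterol genes after cyclization had a median of 0.05 in vtc2 against WT and 0 limma calls in each comparison. An unadjusted limma p under 0.05 was held by 7 in OE against vtc2 (23.3% of all genes) and 4 in vtc2 against WT (19.7%). It was held by 3 in vtc2 against vtc4 (21.0%), 4 in OE against vtc4 (5.02%), 2 in vtc4 against WT (4.86%) and 0 in OE against WT (6.04%). DWF1, SMT1 and SMT2, a reductase and sterol methyltransferases, differed in vtc2 against WT by -0.01, -0.00 and -0.17. The 4 conjugation genes had a median of -0.07, with the sterol glucosyltransferases UGT80A2 at 0.03 and UGT80B1 at -0.12 and the sterol acyltransferase ASAT1 at -0.31 (SE 0.12, limma adjusted p = 0.189). Of the 8 tested genes of brassinosteroid synthesis and breakdown 7 were negative, with a median of -0.10. The breakdown genes BAS1 and SOB7 differed by -0.15 and 0.16. DET2, a steroid reductase, differed by -0.07 and BR6OX2, an oxidase of the last step, by -0.24 (SE 0.09, limma adjusted p = 0.194), and CPD, a cytochrome P450 of that route, stood at 142 ± 17.7 FPKM in WT and 132 ± 12.9 in vtc2.

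In the plastid MEP route, 6 of 7 genes were negative in vtc2 against WT, with a median of -0.20, 5 unadjusted p under 0.05 (19.7% of all genes) and 0 calls by limma, or 1 call with the replicate block. HDR, its last enzyme, stood at 567 ± 36.2 FPKM in WT and 492 ± 25.4 in vtc2 (limma adjusted p = 0.0921), and DXS, the first, at 203 ± 19.9 and 210.5 ± 20.2. HDS, the enzyme before HDR, rose from 150.5 ± 4.44 FPKM in vtc2 to 179 ± 1.85 in OE, a difference of 0.25 (SE 0.06, limma adjusted p = 0.0392). This was the 1 call among the 56 genes, in a comparison where 5.14% of all genes were called. The HDS call held in 9 of 21 alternatives. It ended without any 1 of the vtc2, vtc4 or OE libraries, with only the compared groups, without the mean-variance trend and after rescaling to TPM. The leaf marker CA1, a chloroplast carbonic anhydrase, differed in the same direction by 0.31 in OE against vtc2 (limma adjusted p = 0.0743), and its part in the HDS difference was not tested.

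**Figure D5:**
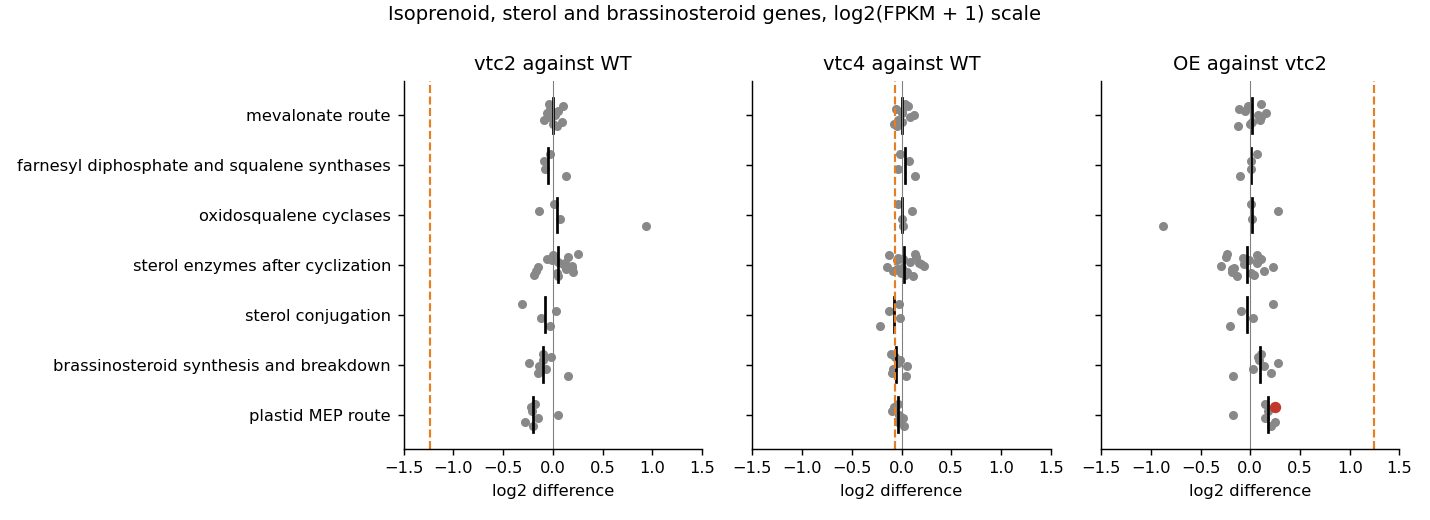
Difference in log2(FPKM + 1) of each tested pathway gene by list, in vtc2 against WT, vtc4 against WT and OE against vtc2; grey points were not called, red points were called, black bars are list medians and the dashed line marks SQP1. The list medians lie between -0.20 and 0.05 in vtc2 against WT, while SQP1 lies at -1.24.

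The profile of SQP1 was also compared with those of 16871 genes of at least 1 FPKM on average, as a description over the same 12 libraries, in which the vtc2 group stands apart from the rest. By Pearson correlation of log2(FPKM + 1) the 8 most alike were AT1G16080 (0.98), the APS reductase gene APR3 (0.97), AT4G10300 (0.96), the ammonium transporter gene AMT1;2 (0.96), AT1G07450 (0.96), the auxin repressor gene AXR3 (0.96), AT1G77670 (0.96) and VTC2 itself (0.96). APR3 stood at 79.5 ± 12.4 FPKM in WT, 46.0 ± 2.87 in vtc2, 75.9 ± 5.64 in vtc4 and 87.5 ± 11.1 in OE. The 4 least alike were AT4G24840 (-0.96), the ABC transporter gene ABCC12 (-0.94), the glutamate receptor-like gene GLR2.8 (-0.93) and AT5G42090 (-0.93). The 8 highest by Spearman ranking shared 2 genes with this list, and the 8 highest by deviations from the group means shared 0. Within groups APR3 (0.88, 17th of 16871 by deviations) and AT4G10300 (0.79, 122nd) were the closest of the 8, and by Spearman they ranked 3rd and 1st. Among the members the Pearson correlation with SQP1 was 0.67 for SQE3, 0.05 for SQE1, -0.48 for SQE2 and -0.80 for SQE6, and for deviations from group means it was 0.51, -0.23, -0.30 and -0.22.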

How the data were processed

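RNA from 12 rosette libraries, 3 for each of 4 genotypes, was measured by stranded, paired-end mRNA sequencing, per the labels' protocols. The authors' deposited values are FPKM in a single table, made with Trimmomatic 0.36, HISAT2 2.1.0, Cufflinks 2.2.1 and Cuffdiff on TAIR10, per the submitters' processing notes. The gene annotation, strand setting and treatment of reads with several matches are not given in the sources used here. Read totals are unknown, so no counting intervals are given. The FPKM sums ranged from 684606 to 757484, with the vtc2 libraries lowest. Low values moved in steps, taken as 1 fragment, of 0.912 to 1.01 times the step in WT replicate 1.

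From these values, differences of log2(FPKM + 1) were fitted with limma 3.58.1 in R 4.3.3, on 17290 genes with at least 1 FPKM in at least 3 libraries, all 12 libraries in one model of genotype with a mean-variance trend. Two-sided p-values were adjusted by Benjamini-Hochberg over all genes tested, with a threshold of 0.05. Intervals are 95% intervals of the moderated model. Members and lists were chosen with earlier results of these data known. The named genes are the 6 members, VTC2 and VTC4, called list genes (at most 4 per list and comparison, or 3 of the highest mean where none was called), 6 annotated neighbours per side, and the 8 most and 4 least similar profiles. Sequences, gene symbols and coordinates come from RefSeq's TAIR10.1, to which 32217 of 33618 IDs matched. The table holds no coordinates. Alternatives changed the pseudocount, filter, scaling and model, added a replicate block, or left out 1 library. Of 18 pairs of same-numbered libraries, 6 had deviations correlated above 0.1 (range -0.169 to 0.204), short of all pairs, so the numbers were not taken as pairs.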

Additional observations from a re-analysis of the deposited data

How the results depend on the processing

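Over 21 alternatives, 12 of which left out 1 library, SQP1 kept its sign in vtc2 against WT (-1.33 to -1.12). The number of called members in OE against vtc2 was 1 and became 0 with no low-value filter (0) and with only the groups compared (0), and 0 to 1 without single libraries. The SQE6 difference there had a limma adjusted p of 0.0257 to 0.106, 0.0570 with no filter and 0.0904 with only the groups compared. In the other 4 tested comparisons 0 members were called throughout. The replicate block changed no member call and added 1 MEP gene in vtc2 against WT. It called 602 genes in vtc2 against WT (523 without it), 906 in OE against vtc2 (888) and 240 in vtc2 against vtc4 (236), and 3 of 12 libraries correlated best with their own number. Small differences changed sign: SQE2 in OE against WT was 0.0028 with median-ratio scaling and 0.0174 after rescaling to TPM. Without single libraries SQP1 ran from -0.165 to 0.0508 in vtc4 against WT and from -0.0879 to 0.128 in OE against WT, with the highest values without WT replicate 3. The other ranges were -0.0581 to 0.0465 for SQE2 and -0.0122 to 0.101 for SQE6 in vtc4 against WT, -0.0611 to 0.0845 for SQE2 in OE against WT, -0.0918 to 0.0386 for SQE1 in OE against vtc2, -0.0143 to 0.116 for SQE1 in vtc2 against vtc4, and in OE against vtc4 -0.00846 to 0.0495 for SQE1, -0.0490 to 0.104 for SQE2 and -0.0476 to 0.0663 for SQE3. Called genes over the whole table ranged from 13 with only the groups compared to 727 in vtc2 against WT (523), 5 to 19 in vtc4 against WT (6), 2 to 20 in OE against WT (3), 93 to 1314 in OE against vtc2 (888), 7 to 728 in vtc2 against vtc4 (236) and 5 to 9 in OE against vtc4 (7). With no low-value filter, and also without vtc2 replicate 1, 1 oxidosqualene cyclase was called in each comparison of vtc2 with WT, OE and vtc4. After rescaling to TPM 1 sterol gene was called in vtc2 against WT, and without vtc2 replicate 1 there were 1 sterol and 1 brassinosteroid gene in OE against vtc2. The causes were not tested. FPKM without read totals limits what can be said of SQP2 and other genes near 0.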
